A study of Mus musculus with 9 samples.

Results

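The insulin-like growth factor (IGF) axis was examined through 10 genes, namely the ligands Igf1 and Igf2, the receptors Igf1r, Igf2r and Insr, the adaptor Irs2 and the binding proteins Igfbp2, Igfbp3, Igfbp4 and Igfbp5. They were taken as a listed family by gene symbol from the 19505 named genes of the arrays, each through its transcript with the highest mean, and each of the 10 had 1 transcript. RNA had been hybridized to 9 Clariom S Mouse arrays, 3 from SAMP8 mice given TFQA, 3 from SAMP8 mice given water and 3 from SAMR1 mice given water. All mice were males, described as 6 months old, and by the methods tissue was taken after the 37 days of treatment given below. SAMP8 is the senescence-accelerated prone strain and SAMR1 the senescence-accelerated resistant strain, so that both differ from each other by inbred background and not by 1 engineered allele. TFQA is a synthetic tri-feruloylquinic acid and was given at 1 mg/kg by oral gavage for 37 days. The methods name ethanol as the solvent of the TFQA stock, and for the water groups they name water alone. By the methods the RNA came from hippocampus, while the labels read brain for the tissue and neural stem cells for the cell type. No source says whether 3 arrays of a group stand for 3 mice, and the p-values therefore rest on a spread between arrays that may not be the spread between mice.

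IGF1 and IGF2 are secreted peptides that signal mainly through the tyrosine kinase receptor IGF1R, while insulin acts through the related receptor INSR, and both receptors pass the signal to the IRS adaptors and on to the PI3K-Akt and Ras-MAPK cascades. IGF2R, the mannose 6-phosphate receptor, takes IGF2 up for degradation in lysosomes, and the IGFBPs bind the ligands outside the cell and hold them in reserve or present them. Igf2 is imprinted in most tissues, but in rodent choroid plexus and leptomeninges, where most of its transcript in the adult brain is found, it is expressed from both alleles. IGF2 has been studied in hippocampal memory, and Igfbp2 is likewise abundant in choroid plexus and meninges.

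Values are log2 signals, on which a difference of 1 is a doubling of the signal. Groups were compared within each gene, because the probes of each gene bind differently, and levels of different genes are given only as broad ranks. The groups were compared with limma in a single fit of the 9 arrays, with Benjamini-Hochberg adjustment of the p-values across the 22206 transcripts. In what follows, "past the study's threshold" means a fold change over 1.1 together with p under 0.05 before adjustment. None of the 10 genes had an adjusted p under 0.05 in limma in any of the 3 comparisons. Past the study's threshold, SAMP8 water had higher Igf2 and Igfbp2 than SAMR1 water, and SAMP8 TFQA had lower Igfbp4 than SAMP8 water. In bulk tissue, fewer cells of a type and less RNA per cell cannot be told apart.

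The promoters of these 3 genes are shown because the results turn on them. Windows of 300 bases, from 250 before to 50 after a start site, were taken from RefSeq on GRCm38.p6 and matched to 9 of the 10 genes by symbol, in 13 windows. The labels name the build mm10 for the arrays, which carry no coordinates here. Igf2 has 4 start sites and Igfbp2 has 2, and the arrays do not separate them. For both genes the window with the most GC boxes is given, 5′ to 3′ on the strand of the gene, with each GC box (GGGCGG, searched on both strands) in capitals. The window of Igf2 is chr7:142657447-142657746 on the minus strand, with 2 GC boxes and 7 CpG dinucleotides.
Igf2: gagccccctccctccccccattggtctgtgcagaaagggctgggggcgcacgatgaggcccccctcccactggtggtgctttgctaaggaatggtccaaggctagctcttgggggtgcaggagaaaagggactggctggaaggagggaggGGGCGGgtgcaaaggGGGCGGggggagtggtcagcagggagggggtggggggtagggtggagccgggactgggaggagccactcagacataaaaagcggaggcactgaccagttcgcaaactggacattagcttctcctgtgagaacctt
The window of Igfbp2 is chr1:72824230-72824529 on the plus strand, with 3 GC boxes and 18 CpG dinucleotides.
Igfbp2: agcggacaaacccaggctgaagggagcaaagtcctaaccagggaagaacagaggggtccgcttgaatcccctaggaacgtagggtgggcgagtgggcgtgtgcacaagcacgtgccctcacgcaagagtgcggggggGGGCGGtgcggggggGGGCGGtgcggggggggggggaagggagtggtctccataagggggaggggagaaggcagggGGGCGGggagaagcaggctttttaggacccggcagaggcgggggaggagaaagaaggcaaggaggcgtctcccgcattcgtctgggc
The window of Igfbp4 is chr11:99040994-99041293 on the plus strand. It holds no GC box, has 27 CpG dinucleotides, and its TATA box (TATAAA, searched on both strands) is in capitals.
Igfbp4: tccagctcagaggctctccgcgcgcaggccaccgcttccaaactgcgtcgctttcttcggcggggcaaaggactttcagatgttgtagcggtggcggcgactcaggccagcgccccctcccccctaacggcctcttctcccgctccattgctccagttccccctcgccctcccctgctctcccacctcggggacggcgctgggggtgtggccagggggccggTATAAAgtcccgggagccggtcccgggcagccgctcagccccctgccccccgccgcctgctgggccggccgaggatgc
A GC box was found in 6 of the 13 windows of the IGF genes and in 35.7% of all 32851 promoter windows of the same length, and a TATA box in 1 of the 13 and in 13.6% of all. These counts describe the letters of the windows, and no binding was measured.

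Among the ligands, Igf2, which maps to chromosome 7 from 142650768 to 142666816 of GRCm38.p6, differed most between the strains. It read 10.76, 11.59 and 10.83 in the SAMP8 water arrays, against 8.86, 10.41 and 9.57 in the SAMR1 water arrays. Every SAMP8 water array lay above every SAMR1 water array, and SAMR1 water replicate 2, at 10.41, came nearest to them. The mean was 11.06 ± 0.46 in SAMP8 water and 9.61 ± 0.78 in SAMR1 water (SD, n = 3 arrays each). The log2 fold change was 1.45 (standard error 0.38, 95% interval 0.61 to 2.28), which is 2.73-fold, and limma gave an adjusted p of 0.243. In the order of the transcripts by p-value, Igf2 stood at place 245 of the 22206. Without single arrays the log2 fold change lay between 1.07, without SAMR1 water replicate 1, and 1.85, without SAMR1 water replicate 2, and it stayed past the study's threshold each time. After TFQA, Igf2 read 11.22, 10.08 and 10.93. These values overlapped those of SAMP8 water, with a log2 fold change of -0.32 (95% interval -1.15 to 0.52; adjusted p = 0.881 from limma). Without SAMP8 TFQA replicate 2, which held the low value of 10.08 and stood apart in striatal markers, it was 0.02, and without SAMP8 water replicate 2 it was -0.05. By mean level the order was SAMP8 water, SAMP8 TFQA and SAMR1 water, and the first pair did not differ beyond the spread of the arrays. The log2 fold change of SAMP8 TFQA vs. SAMR1 water was 1.13 (95% interval 0.29 to 1.97; adjusted p = 0.453 from limma). It was not past the study's threshold when SAMR1 water replicate 1 (0.75) or SAMP8 TFQA replicate 1 (0.89) was left out, or when the variances were not moderated.

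Igf1, the ligand that mediates most growth effects of growth hormone in the body, lay between 7.94 and 8.32 on all 9 arrays, and the groups overlapped. Its mean was 8.15 ± 0.15 in SAMP8 TFQA, 8.12 ± 0.12 in SAMP8 water and 8.06 ± 0.13 in SAMR1 water (SD, n = 3 arrays each). The 95% interval of its log2 fold change was -0.27 to 0.40 in SAMP8 water vs. SAMR1 water and -0.31 to 0.37 in SAMP8 TFQA vs. SAMP8 water. The SD of Igf1 over the 9 arrays was 0.12, below that of most transcripts (percentile 5.75), while that of Igf2 was 0.85 (percentile 99.5).

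**Figure D1:**
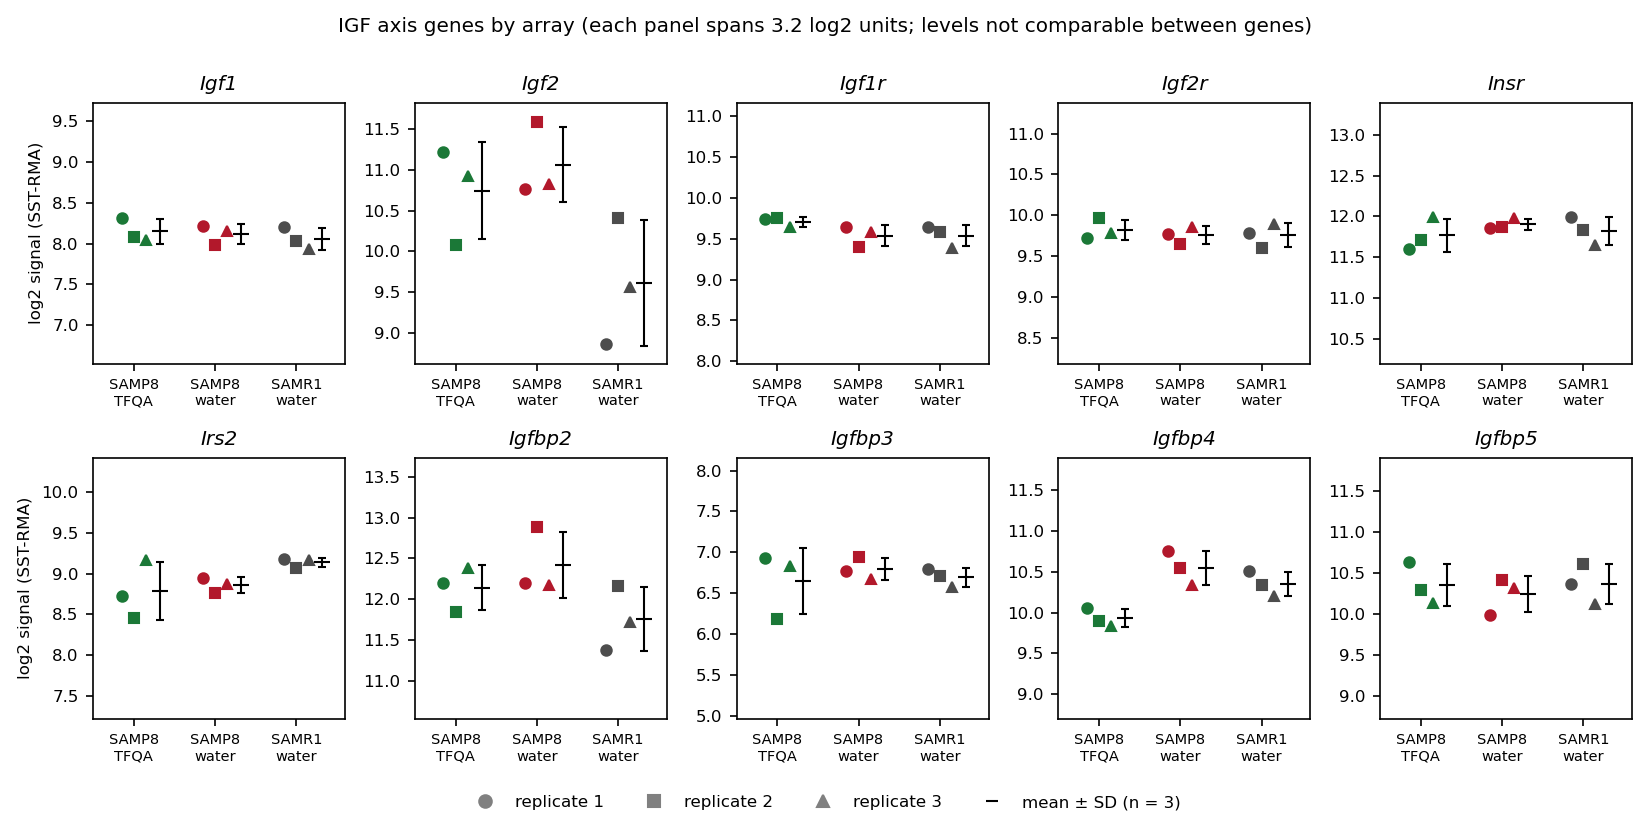
Log2 signal of the 10 IGF axis genes on each array, with 1 panel per gene, groups on the x axis and the mean with its SD (n = 3) beside the points. Igf2 ranged from 8.86 to 11.59, whereas Igf1, Igf1r, Igf2r and Insr stayed within narrow bands in all groups.

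The receptors had similar levels in all groups. Igf1r, which carries the signal of both ligands, had a mean of 9.71 ± 0.06 in SAMP8 TFQA, 9.54 ± 0.12 in SAMP8 water and 9.54 ± 0.13 in SAMR1 water (SD, n = 3 arrays each). Its 9 arrays lay between 9.39 and 9.75. Igf2r ranged from 9.60 to 9.96 and had a mean of 9.76 in both SAMP8 water and SAMR1 water. Its 95% interval for SAMP8 water vs. SAMR1 water was -0.33 to 0.33. Insr, the insulin receptor, lay between 11.60 and 11.99, with a log2 fold change of 0.08 (95% interval -0.27 to 0.43) in SAMP8 water vs. SAMR1 water and of -0.14 (95% interval -0.49 to 0.21) in SAMP8 TFQA vs. SAMP8 water. A p-value that misses the threshold does not show that levels were equal, and the intervals give the differences these arrays cannot set apart from 0.

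Irs2, the adaptor below the insulin and IGF1 receptors, read 8.95, 8.76 and 8.87 in SAMP8 water, against 9.18, 9.07 and 9.16 in SAMR1 water. All SAMP8 water arrays were below all SAMR1 water arrays, but the difference of -0.28 (standard error 0.18, adjusted p = 0.919 from limma) was not past the study's threshold. In SAMP8 TFQA, Irs2 read 8.73, 8.46 and 9.17, a wider spread that overlapped both other groups. The difference of SAMP8 TFQA from SAMR1 water was -0.35 (95% interval -0.75 to 0.05), and of the 9 fits that left out 1 array it passed the study's threshold in 1, that without SAMP8 TFQA replicate 3 (-0.54).

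Among the binding proteins, Igfbp2 had the pattern nearest to that of Igf2. Igfbp2, on chromosome 1 from 72824480 to 72852474, read 12.20, 12.89 and 12.18 in SAMP8 water, against 11.38, 12.16 and 11.72 in SAMR1 water. The groups did not overlap, yet the gap between 12.18 and 12.16 was small. The log2 fold change was 0.67 (standard error 0.25, 95% interval 0.13 to 1.21; adjusted p = 0.600 from limma). It was not past the study's threshold when SAMR1 water replicate 1 (0.48) or SAMP8 water replicate 2 (0.44) was left out, or when the variances were not moderated. After TFQA, Igfbp2 read 12.20, 11.84 and 12.38, with a log2 fold change of -0.28 against SAMP8 water (95% interval -0.82 to 0.26) and of 0.39 against SAMR1 water (95% interval -0.15 to 0.93). The difference from SAMR1 water was 0.20 when SAMR1 water replicate 1 was left out, and it was 0.59 and past the study's threshold when SAMR1 water replicate 2 was. Leaving out SAMP8 TFQA replicate 2 brought the difference from SAMP8 water to -0.13, and leaving out SAMP8 water replicate 2 brought it to -0.05.

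Igfbp4, a binding protein that mostly restrains IGF action until it is cleaved by the protease PAPP-A, was the member that differed most after TFQA. It read 10.06, 9.90 and 9.84 in SAMP8 TFQA, against 10.76, 10.55 and 10.34 in SAMP8 water and 10.51, 10.34 and 10.21 in SAMR1 water. All SAMP8 TFQA arrays were below all arrays of both water groups. The mean was 9.93 ± 0.11 in SAMP8 TFQA and 10.55 ± 0.21 in SAMP8 water (SD, n = 3 arrays each), and the log2 fold change was -0.62 (standard error 0.16, 95% interval -0.97 to -0.26), which is 0.652-fold. Its adjusted p was 0.561 from limma, and it stood at place 83 of the transcripts by p-value. Leaving out single arrays gave log2 fold changes between -0.72 and -0.51, each past the study's threshold. SAMP8 water and SAMR1 water overlapped in Igfbp4 (0.20, standard error 0.16). Against SAMR1 water the log2 fold change of SAMP8 TFQA was -0.42 (95% interval -0.78 to -0.06; adjusted p = 0.542 from limma), and this was not past the study's threshold without SAMR1 water replicate 1, SAMP8 TFQA replicate 2 or SAMP8 TFQA replicate 3.

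Igfbp3, the main carrier of IGFs in blood, read 6.93, 6.18 and 6.83 in SAMP8 TFQA, and the other 6 arrays lay between 6.57 and 6.94. The low value was that of SAMP8 TFQA replicate 2, and without it the difference from SAMP8 water was 0.09, against -0.15 with it. Igfbp5, which binds both ligands and extracellular matrix, lay between 9.99 and 10.64 with overlapping groups, with a log2 fold change of -0.13 (95% interval -0.55 to 0.29) between the strains and of 0.11 (95% interval -0.31 to 0.53) after TFQA. The gene of Igfbp5 ends 5591 bases from that of Igfbp2 on chromosome 1, and its values overlapped between the strains where those of Igfbp2 did not.

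**Figure D2:**
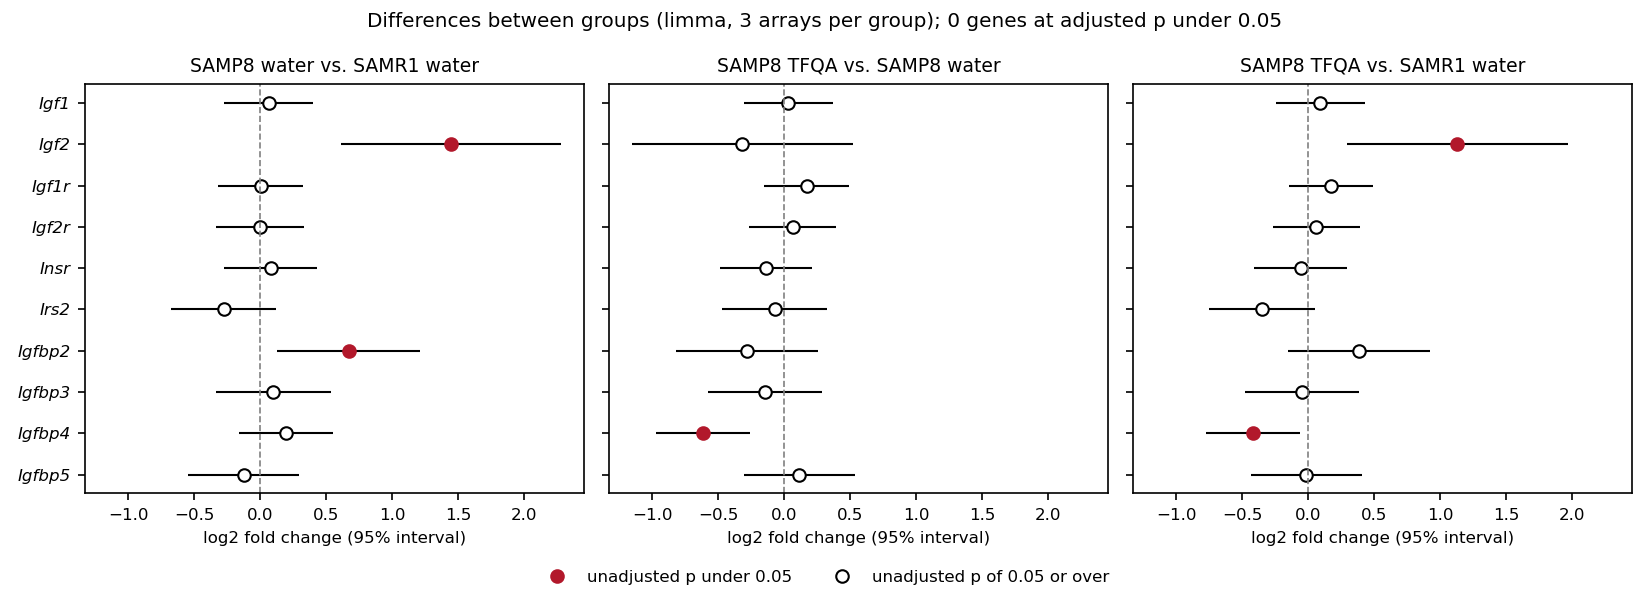
Log2 fold changes of the 10 genes (x axis) with their 95% intervals from limma in each of the 3 comparisons, with points filled where limma's p before adjustment was under 0.05. Igf2 (1.45) and Igfbp2 (0.67) were on the positive side in SAMP8 water vs. SAMR1 water, and Igfbp4 (-0.62) on the negative side in SAMP8 TFQA vs. SAMP8 water.

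Counted together, 2 of the 10 genes were higher and 0 lower past the study's threshold in SAMP8 water vs. SAMR1 water, where 6.09% of all transcripts passed it (3.4% higher and 2.7% lower). After TFQA, set against SAMP8 water, 0 were higher and 1 was lower, where 7.12% of all passed (3.36% higher and 3.76% lower). In SAMP8 TFQA vs. SAMR1 water, 1 was higher and 1 lower, where 8.06% of all passed (4.07% higher and 3.99% lower). At an adjusted p under 0.05 in limma, beside 0 of the 10 genes, 0.509% of all transcripts passed in SAMP8 water vs. SAMR1 water (0.383% higher and 0.126% lower). The share was 0% in SAMP8 TFQA vs. SAMP8 water, and 0.576% in SAMP8 TFQA vs. SAMR1 water (0.45% higher and 0.126% lower). Between the strains the arrays were fully separated in 3 of the 10 genes (2 higher, 1 lower), beside 11.8% of all transcripts (5.77% higher and 6.04% lower). After TFQA they did not overlap in 1 of the 10 (lower), beside 11.8% of all (5.89% higher and 5.91% lower). In SAMP8 TFQA vs. SAMR1 water they did not overlap in 1 of the 10 (lower), beside 12.3% of all (5.97% higher and 6.32% lower). The median log2 fold change of the 10 genes was 0.07 in SAMP8 water vs. SAMR1 water (-0.01 over all transcripts) and -0.10 after TFQA against SAMP8 water (0.01 over all). The comparisons share arrays, so that their values for 1 gene are not independent of each other.

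Between the strains, most markers of meninges, choroid plexus, vessels and astrocytes differed in the same direction as Igf2 and Igfbp2. Of all transcripts, 6.09% passed the study's threshold. Of 12 meningeal fibroblast markers, 11 had higher means in SAMP8 water than SAMR1 water, 7 of them past the study's threshold, among them the retinoic acid enzyme gene Aldh1a2 (0.76, standard error 0.19) and the transporter gene Slc22a6 (1.02, standard error 0.26). A score was formed by centring each marker on its mean over the 9 arrays and averaging the markers of an array. For the meningeal markers it was 0.07 to 0.49 in SAMP8 water and -0.49 to -0.21 in SAMR1 water. Of 14 choroid plexus markers, 13 had higher means in SAMP8 water than SAMR1 water, 9 of them past the study's threshold, and 1, Calml4, was lower past it. Their score was 0.14 to 0.69 in SAMP8 water and -0.78 to 0.29 in SAMR1 water. Of 8 pericyte and smooth muscle markers, 4 were higher and 1, Abcc9, was lower in SAMP8 water past the study's threshold. Vtn, a pericyte marker, was higher in SAMP8 water with a log2 fold change of 1.06 (95% interval 0.66 to 1.46; adjusted p = 0.0215 from limma). By mean level this list was mixed, with 5 markers raised and 3 reduced in SAMP8 water. The reduced ones were Abcc9 (-0.61, standard error 0.15), Pdgfrb (-0.17, standard error 0.18) and Kcnj8 (-0.09, standard error 0.24). The score of the list was -0.08 to 0.20 in SAMP8 water and -0.40 to -0.16 in SAMR1 water. The score of 8 endothelial markers was -0.06 to 0.06 in SAMP8 water and -0.25 to -0.21 in SAMR1 water. All 7 astrocyte markers had higher means in SAMP8 water too (median 0.08), 1 of them past the study's threshold. Their score was 0.05 to 0.26 in SAMP8 water, with replicate 2 highest, and -0.29 to 0.06 in SAMR1 water. Of 7 microglia markers, 6 had higher means in SAMP8 water (median 0.05). All 10 striatal and all 5 oligodendrocyte markers had lower means there, as did 5 of 6 mature neuron and 7 of 8 stem cell and newborn neuron markers. Interneuron markers split into 2 higher and 4 lower, and hippocampal neuron markers into 6 higher and 5 lower. Set against SAMR1 water, SAMP8 TFQA had higher Igf2 while its choroid plexus markers split into 7 higher and 7 lower (median 0.07, with 2 higher and 1 lower past the study's threshold), and 10 of its 12 meningeal markers were higher (median 0.58, with 7 higher past it). After TFQA the meningeal score was -0.15 to 0.36 and the choroid plexus score -0.52 to 0.26, and all 14 choroid plexus markers were lower than in SAMP8 water, 5 of them past the study's threshold. The log2 of the summed signals was 10.72 to 11.89 in SAMP8 TFQA, 11.60 to 12.10 in SAMP8 water and 10.51 to 11.29 in SAMR1 water for the meningeal markers. For the choroid plexus markers, where transthyretin (Ttr) is the brightest, it was 18.31 to 19.11 in SAMP8 TFQA, 19.03 to 19.45 in SAMP8 water and 17.72 to 18.99 in SAMR1 water. Log2 array signals do not reach 0, so that no marker can be called absent from its level. Array by array, SAMP8 water replicate 2 was highest in Igf2, Igfbp2 and both scores, SAMR1 water replicate 1 was lowest in all 4, and SAMP8 TFQA replicate 2 was lowest of its group in all 4. SAMP8 TFQA replicate 2 also stood apart in striatal markers, with a score of 3.01 where the other 8 arrays lay between -0.78 and 0.53. The part of these cells in the difference of Igf2 and Igfbp2 was not tested.

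**Figure D3:**
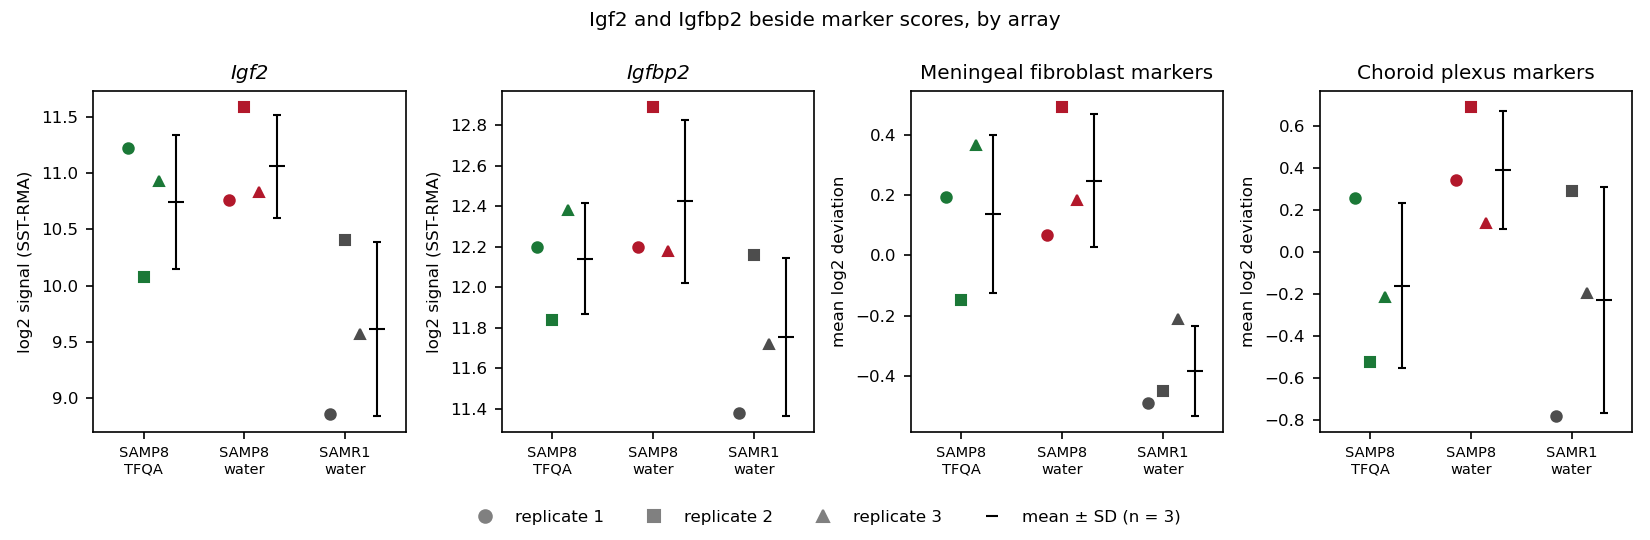
Igf2 and Igfbp2 (log2 signal) beside the scores of 12 meningeal fibroblast and 14 choroid plexus markers (mean log2 deviation from the mean of the 9 arrays), by array and group, with the mean and SD of n = 3. SAMP8 water replicate 2 was the highest array and SAMR1 water replicate 1 the lowest array in all 4 panels.

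The genes whose pattern over the 9 arrays was most like that of Igf2 were Otx2 (Pearson r 0.944, Spearman rho 0.833), a homeobox gene of the choroid plexus, Igfbp2 (r 0.943, rho 0.946), the choroid plexus potassium channel gene Kcnj13 (r 0.940, rho 0.917), the ATPase gene Vcp (r 0.938, rho 0.883) and the angiotensinogen gene Agt (r 0.936, rho 0.867). They are the top 5 of 19504 genes searched, so that high values were to be found in any case, and no test was made. Without the 2 arrays of the most extreme Igf2 values, the r of Otx2 was 0.854, that of Igfbp2 0.870, that of Kcnj13 0.946, that of Vcp 0.881 and that of Agt 0.765. With the means of the groups taken out, Igf2 and Igfbp2 still had an r of 0.924. For Igfbp2 the nearest genes were the tetraspanin gene Cd9 (r 0.960, rho 0.882), the retinoic acid hydroxylase gene Cyp26a1 (r 0.957, rho 0.971) and 3 vomeronasal receptor genes, Vmn1r62, Vmn1r186 and Vmn1r191, of which Vmn1r62 and Vmn1r186 have the same r (0.949) and the same rho (0.812). Without the 2 arrays of the most extreme Igfbp2 values, r was 0.907 for Cd9, 0.959 for Cyp26a1, 0.797 for Vmn1r62 and Vmn1r186 and 0.839 for Vmn1r191. Since 254 transcripts of the arrays carry the values of another one, Vmn1r62 and Vmn1r186 may be 1 measurement listed under 2 names. All of these values share the same 9 arrays.

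Beside Igfbp4, the means of several marker lists leaned to 1 side after TFQA. Of all transcripts, 7.12% passed the study's threshold (3.36% higher and 3.76% lower). Other lists were split, with 4 pericyte and smooth muscle markers higher and 4 lower, and 5 meningeal markers higher and 7 lower. All 14 choroid plexus markers were lower in SAMP8 TFQA than in SAMP8 water (median -0.54), and all 7 astrocyte markers were lower too (median -0.12, with 0 past the study's threshold). The astrocyte scores overlapped, with -0.13 to 0.11 in SAMP8 TFQA and 0.05 to 0.26 in SAMP8 water. All 6 interneuron markers were higher (median 0.30, with 1 past it), with scores of 0.01 to 0.34 in SAMP8 TFQA and -0.29 to -0.06 in SAMP8 water. The score of the endothelial markers was 0.20 to 0.24 in SAMP8 TFQA, -0.06 to 0.06 in SAMP8 water and -0.25 to -0.21 in SAMR1 water, and was thus highest in SAMP8 TFQA, where Igfbp4 was lowest. In SAMP8 TFQA replicate 2, the array with the high striatal markers, Igfbp4 read 9.90, between the other arrays of its group, and without it the log2 fold change was -0.60. Of 11 hippocampal neuron markers, all 11 were lower in SAMP8 TFQA than in SAMP8 water, 2 of them past the study's threshold. Their scores were -0.61 to -0.01 in SAMP8 TFQA and -0.14 to 0.43 in SAMP8 water. The score of -0.61 was that of SAMP8 TFQA replicate 2. Replicates 1 (-0.01) and 3 (-0.08) of SAMP8 TFQA lay within the range of SAMP8 water. Whether the makeup of the tissue takes part in the Igfbp4 values was not tested. The labelled tissue was looked for in the same way, through 11 of 12 listed hippocampal markers and 8 of 9 listed markers of neural stem cells and newborn neurons. Over the 9 arrays the log2 signal was 13.68 to 15.06 for Neurod6 and 10.58 to 11.94 for Prox1, of hippocampal neurons, and 9.41 to 10.54 for Sox2, 7.69 to 8.22 for Dcx, 5.09 to 6.07 for Nes and 4.06 to 5.71 for Mki67, of stem cells, newborn neurons and dividing cells. All 6 mature neuron markers had means above that of the median transcript, at a median percentile of 98.2. Of the 11 hippocampal neuron markers 9 did, at a median percentile of 75.2, with Tdo2 lowest at 35.8. Of the 8 markers of stem cells and newborn neurons 4 did, at a median percentile of 52.15. The 5 oligodendrocyte markers had a median percentile of 79.5. For the 14 choroid plexus markers it was 55.1, near that of the stem cell and newborn neuron markers. Among single genes, Syp stood at percentile 99.9, the myelin gene Mbp at 99.7 and Ttr, the brightest choroid plexus marker, at 99.9. Signal of mature neurons, myelin and choroid plexus was thus present, so that the arrays did not measure neural stem cells alone. Probes of different genes differ in brightness and no detection calls were used, so that brain and hippocampus cannot be told apart from these signals.

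The rest of the axis was measured through 19 of 23 listed genes, an insulin gene, binding proteins, adaptors, proteases and growth hormone genes. Between SAMP8 water and SAMR1 water, 12 were higher and 7 lower, and 0 passed the study's threshold, beside 6.09% of all transcripts. Gh, growth hormone, read 4.80, 4.85 and 7.44 in SAMP8 TFQA, 4.61, 4.99 and 11.31 in SAMP8 water and 4.32, 5.51 and 4.83 in SAMR1 water. The strain difference was 2.08 on the log2 scale with a standard error of 1.37, and 11.31 in SAMP8 water replicate 3 was the 1 value in that group above those of SAMR1 water. Stc2, an inhibitor of PAPP-A, was 0.29 higher on the log2 scale with a standard error of 0.24. After TFQA, 1 of the 19, the insulin gene Ins2, was higher past the study's threshold and 0 were lower, which is 5.26% of the 19 beside 7.12% of all transcripts. Ins2, a gene 11840 bases from Igf2 on chromosome 7, read 5.64, 5.40 and 5.84 in SAMP8 TFQA, against 5.11, 5.32 and 5.20 in SAMP8 water (log2 fold change 0.42, standard error 0.16, adjusted p = 0.637 from limma). The groups did not overlap, but the signal was dim, with the mean of Ins2 at percentile 33.1 of all transcripts. Stc2 (-0.51, standard error 0.24), Stc1 (-0.32, standard error 0.19) and Pappa2 (-0.28, standard error 0.17), another IGFBP protease, did not pass the study's threshold. Their means were dim as well, at percentiles 36, 34.5 and 26.6. Against SAMR1 water, SAMP8 TFQA was higher in Igfbp6 (0.56, standard error 0.25), which prefers IGF2 as ligand, and lower in Stc1 (-0.48, standard error 0.19), both past the study's threshold with overlapping arrays. These are 10.5% of the 19 beside 8.06% of all transcripts.

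Below the receptors, 42 of 50 listed genes of insulin and IGF signaling were measured. In SAMP8 water vs. SAMR1 water, 0 were higher and 2 lower past the study's threshold, which is 4.76% of the 42 beside 6.09% of all transcripts, so that the list did not stand out by its count. The median log2 fold change was -0.02 beside -0.01 over all transcripts. Sos1, the exchange factor that activates Ras, read 11.43, 11.34 and 11.33 in SAMP8 water, against 11.93, 11.84 and 11.96 in SAMR1 water (log2 fold change -0.54, standard error 0.18, adjusted p = 0.517 from limma). Ide, the insulin-degrading enzyme, read 8.31, 8.23 and 10.08 in SAMP8 water, against 10.68, 10.15 and 10.45 in SAMR1 water (-1.55, standard error 0.59, adjusted p = 0.648 from limma). In SAMP8 TFQA it read 10.31, 8.09 and 10.56, so that 3 of the 6 SAMP8 arrays lay near 8 and the other 3 above 10. Tsc2 (-0.32, standard error 0.19) and Shc1 (0.25, standard error 0.15) did not pass the threshold. After TFQA, 1 was higher and 0 lower, which is 2.38% of the 42 beside 7.12% of all transcripts. Mtor, the kinase that couples growth signals to protein synthesis, read 11.32, 11.32 and 11.33 in SAMP8 TFQA, against 10.98, 10.84 and 11.14 in SAMP8 water (0.34, standard error 0.15, adjusted p = 0.689 from limma). Pik3r1, the regulatory subunit of PI3K (0.54, standard error 0.25), the lipid phosphatase gene Inppl1 (-0.37, standard error 0.18) and Foxo4 (-0.36, standard error 0.19) did not pass it. In SAMP8 TFQA vs. SAMR1 water, Mtor (0.40, standard error 0.15) and Pik3r1 (0.57, standard error 0.25) were higher past the study's threshold and 0 were lower, which is 4.76% of the 42 beside 8.06% of all transcripts.

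**Figure D4:**
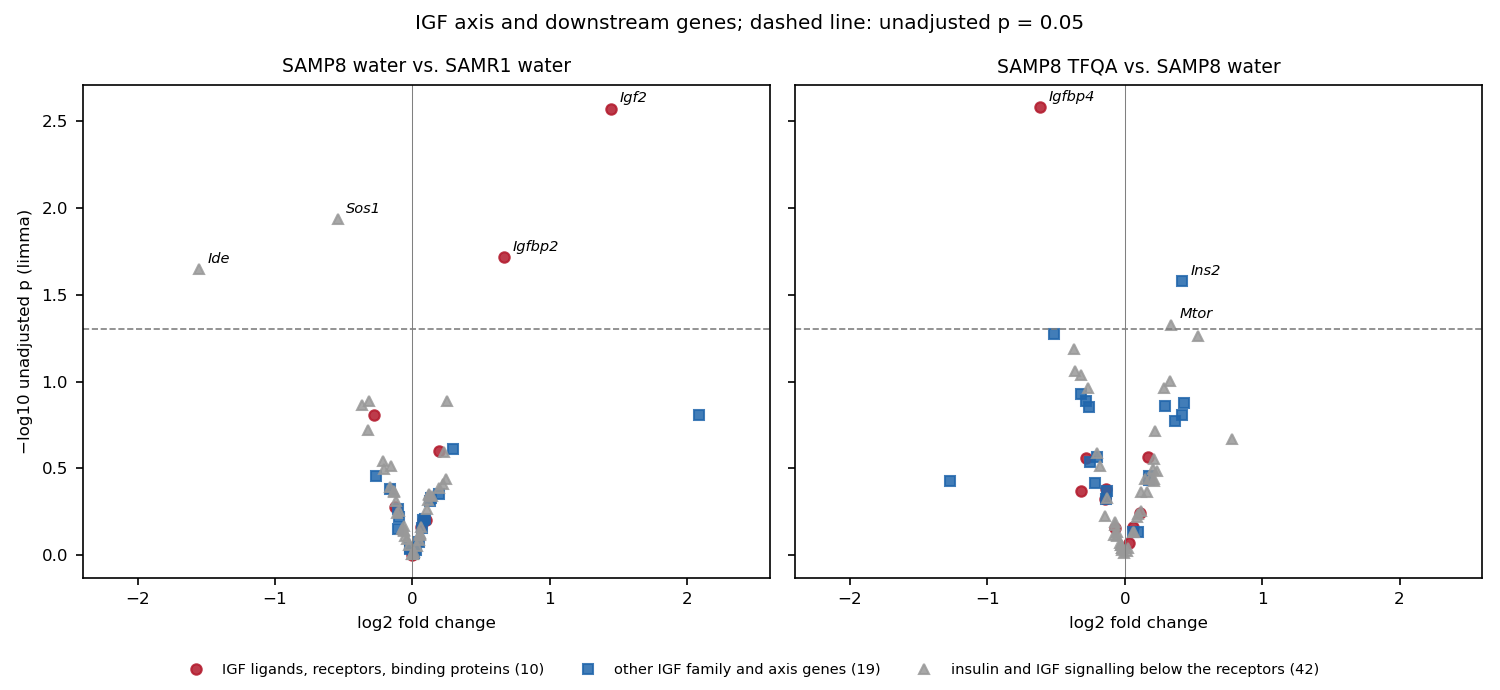
Log2 fold change (x axis) against −log10 p from limma before adjustment (y axis) for the 10 IGF genes, 19 other genes of the axis and 42 genes below the receptors, with the dashed line at 0.05. In SAMP8 water vs. SAMR1 water Igf2, Igfbp2, Sos1 and Ide lie above the line, and in SAMP8 TFQA vs. SAMP8 water Igfbp4, Ins2 and Mtor do.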

How the data were processed

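The authors scanned Clariom S arrays on a GeneAtlas station and normalized them with their array console by SST-RMA. The submitters' processing notes name RMA and mm10. The deposited values are log2 signals, 1 per transcript and array, corrected for background and normalized between arrays. The table holds 22206 transcripts, of which 19572 have 1 gene symbol in the platform annotation and 2634 have none. Array medians were 6.76 to 6.81, and arrays correlated at 0.988 to 0.993. Of the transcripts, 254 carry the values of another one. No filter was applied.

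In R 4.3.3, limma 3.58.1 (lmFit, eBayes) fitted 1 coefficient per group over 9 arrays, and the code was tested on simulated data. The number of arrays limits the precision (standard error of a difference at the median transcript 0.190). The 10 genes and the lists were chosen with earlier results of these data known. Named were all 10 genes, up to 4 genes with the smallest p of each other pathway list, and the 5 genes most like the 2 members with the largest SD. Marker genes and chromosomal neighbours, where named, were picked with their values known. As alternatives, the fit was repeated on only 2 groups, with a replicate block, with trend and robust settings, without moderation, after quantile normalization or median centring, without the 40% dimmest transcripts, with array weights and without each array.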

Additional observations from a re-analysis of the deposited data

How the results depend on the processing

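Under 17 alternatives, 0 of the 10 genes had an adjusted p under 0.05 in limma in any comparison. The count past the study's threshold in SAMP8 water vs. SAMR1 water was 1 without moderation of the variances, against 2 in the model reported, and 1 to 2 without single arrays. Igf2 was kept each time, with an adjusted p of 0.0790 to 0.772 over the alternatives, and Igfbp4 after TFQA had 0.458 to 0.795. In SAMP8 TFQA vs. SAMP8 water the count was 1, Igfbp4, under every alternative. In SAMP8 TFQA vs. SAMR1 water it was 1 without moderation, against 2, and 0 to 3 without single arrays, with 0 when SAMR1 water replicate 1 was left out. No value past the threshold took the other sign, whereas values that did not pass it were counted with another sign in 28 cases. Of these, 5 were Igf2r in SAMP8 water vs. SAMR1 water, where the means were equal (9.76) and there was no sign to change. The replicate block changed no call, with log2 fold changes of 1.45 for Igf2 (adjusted p = 0.321 from limma) between the strains and -0.62 for Igfbp4 (adjusted p = 0.509) after TFQA. The deviations of arrays of the same number correlated at 6.15e-05 to 0.153, with no negative value. Matched only to arrays of the other groups, 5 of the 9 arrays correlated best with one of their own number. Some such matches arise without a shared batch, and their expected number was not computed. Whether arrays of 1 number shared a batch was not tested. A mean over several transcripts was not run, since each of the 10 genes has 1 transcript. The cause of these shifts was not tested. With 3 arrays per group, differences near the median standard error of 0.190 cannot be told from 0. Larger ones can also be missed. Irs2 in SAMP8 TFQA vs. SAMR1 water (-0.35) did not pass the study's threshold, and Igfbp4 after TFQA (-0.62) did not pass the adjusted one.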
